A study of Mus musculus with 4 samples.

Results

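The splicing factor and hnRNP genes are the 63 autosomal protein-coding genes of GENCODE mouse release 21 whose symbols begin with Srsf, Sf3a or Sf3b, Snrp, Prpf or Hnrnp, out of 20807 autosomal protein-coding genes. They were chosen by name and not by any measured value, and Snrpn, an imprinted gene, was left out by the same rule. There were 11 Srsf genes, 9 Sf3a and Sf3b genes, 11 Snrp genes, 13 Prpf genes and 19 Hnrnp genes. Each gene was asked whether its promoter lay in open chromatin, and how wide the open interval was.

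Chromatin accessibility was measured by ATAC-seq (assay for transposase-accessible chromatin), in which a transposase cuts open DNA and a peak is an interval where the cut fragments pile up. The cells were E14, a mouse embryonic stem cell (ESC) line kept in serum and LIF, and all of them carried a pLKO lentivirus and were selected in puromycin for 2 days before a further 2 days of culture. A short hairpin RNA was aimed at GFP in 1 library (shGFP) and at luciferase in the other 3 (shLuc replicates 1, 2 and 3). ESCs have neither target, so both groups are controls, and the libraries with a hairpin against a chromatin modifier were not analysed here.

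Introns are removed from pre-mRNA by the spliceosome, a machine built on small nuclear ribonucleoproteins (snRNPs). The Snrp genes encode proteins of the snRNPs, the Sf3a and Sf3b genes encode the U2 snRNP complexes that hold the branch site, and the Prpf genes encode factors that assemble the machine and drive its rearrangements. SR proteins (Srsf) and heterogeneous nuclear ribonucleoproteins (Hnrnp) bind the pre-mRNA and decide which splice sites are used, and every dividing cell uses most of them.

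The sequence before the start differed widely between these promoters, and 3 of them are shown because they are near the extremes of what the peak lists hold. Each is the 150 bases that end just before the principal start, the start of the transcript that the annotation ranks first, on the GRCm38 reference and on the strand of the gene. Capitals mark CG dinucleotides. On average over the libraries, Hnrnpa0 (chr13:58128557-58128706, minus strand) had the widest peaks of the genes with a peak in every library, and Prpf39 (chr12:65036183-65036332, plus strand) had nearly the narrowest. Sf3b5 (chr10:13005193-13005342, plus strand) had no peak within 1 kb of its GENCODE start in any library. The RefSeq annotation puts its start 3107 bp further along, inside a peak in shGFP and shLuc replicates 2 and 3. The bases shown may therefore not be its promoter.
Hnrnpa0: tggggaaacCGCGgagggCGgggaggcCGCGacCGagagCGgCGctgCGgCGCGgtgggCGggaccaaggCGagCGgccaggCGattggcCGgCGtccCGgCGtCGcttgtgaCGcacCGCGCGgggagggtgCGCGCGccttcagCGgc
Prpf39: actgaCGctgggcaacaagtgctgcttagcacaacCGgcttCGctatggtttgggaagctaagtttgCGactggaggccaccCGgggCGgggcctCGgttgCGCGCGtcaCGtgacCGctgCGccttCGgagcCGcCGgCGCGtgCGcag
Sf3b5: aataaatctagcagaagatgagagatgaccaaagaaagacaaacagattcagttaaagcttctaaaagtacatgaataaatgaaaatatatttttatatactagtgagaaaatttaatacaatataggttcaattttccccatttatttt
These bases hold 28 CG dinucleotides in Hnrnpa0, 19 in Prpf39 and 0 in Sf3b5. Their GC content falls in the same order from 79.3% to 67.3% and 24.7%.

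A promoter peak is here one no further than 1 kb from the start of an annotated transcript of the gene, whichever transcript that is. The lists held 17860 to 41943 peaks, shLuc replicate 1 the fewest, and they give positions with no height or score, so the width of a peak is the one graded value. How deeply each library was sequenced is unknown. Marker genes were looked up by the same rule as a check of the cell type: 2 of 12 pluripotency markers (Zfp42 and Tfcp2l1) had a promoter peak in all 4 libraries, and 6, among them Pou5f1, Nanog and Sox2, had one in none. Of 7 fibroblast markers 4 had a peak in all 4 libraries, and of 7 early lineage markers 2. Over all coding genes 44% had one in all 4 libraries and 34% in none. The promoters of Pou5f1, Nanog and Sox2, which define ESCs, were thus absent from all 4 lists. The check does not by itself identify the cells as ESCs, and no result given here rests on the markers.

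Most of the splicing factor and hnRNP genes had a promoter peak in every library. In shGFP 60 of 63 genes had one (95.2%, Wilson 95% interval 86.9 to 98.4), against 61.9% of all autosomal protein-coding genes. In shLuc replicate 1 the count was 54 (85.7%, 75.03 to 92.3) against 48.4%. In shLuc replicate 2 it was 60 (95.2%) against 61.5%, and in shLuc replicate 3 it was 55 (87.3%, 76.9 to 93.4) against 56.3%. The share among these genes was higher in 4 of 4 libraries, by a mean of 33.8 percentage points (SD 2.62, n = 4). An exact sign-flip permutation test over the 4 libraries gave a two-sided p of 0.13, which is the smallest that 4 libraries allow. With all 4 differences of the same sign the test could give no other value, so nothing is concluded from it. Intervals cover counting error over genes only. The 63 genes have a median of 5 annotated starts against 3 for all coding genes, so more places count as a promoter. With 1 GENCODE start per gene, the outermost one, the share was 87.3% against 57.1% in shGFP. The outermost start is not always the principal start. In shLuc it was 77.8%, 88.9% and 79.4% against 44.5%, 56.6% and 51.7%.

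**Figure D1:**
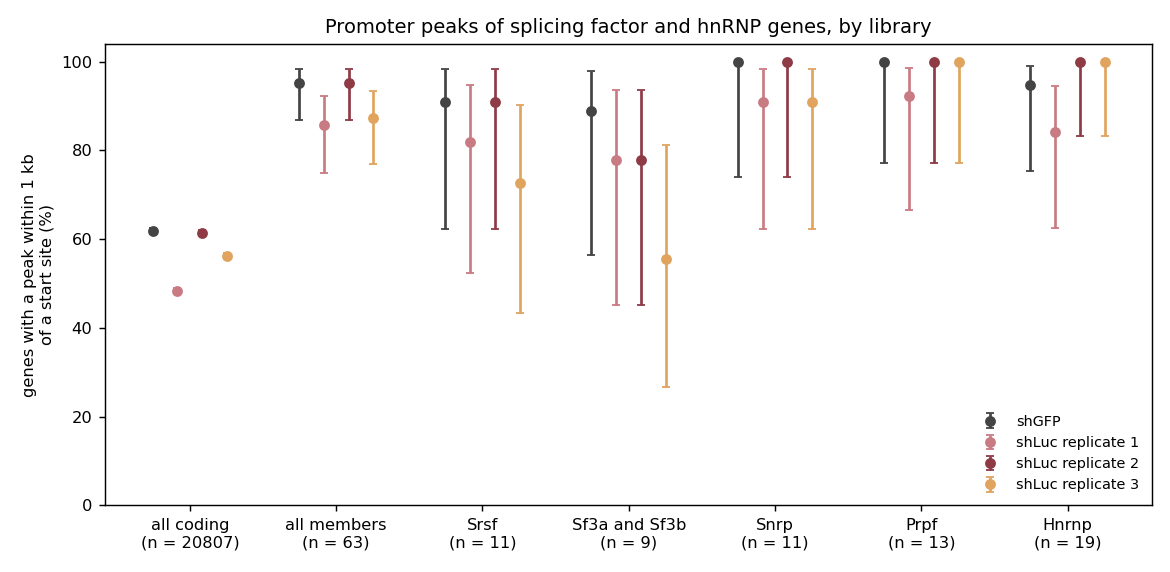
Share of genes with a promoter peak (%, vertical axis) for all autosomal protein-coding genes, all 63 splicing factor and hnRNP genes and each subfamily, 1 point per library with its Wilson 95% interval. All coding genes sit between 48.4% and 61.9%, and the 63 genes between 85.7% and 95.2%; the Sf3a and Sf3b genes reach lowest, at 55.6% in shLuc replicate 3.

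Across libraries, 47 of the 63 genes (74.6%) had a promoter peak in all 4, against 44% of all coding genes. A further 13 had one in 3 libraries and 1 (Sf3b3) in 2. The remaining 2 genes (3.17%), Srsf12 and Sf3b5, had one in no library, against 34% of all coding genes. Without shLuc replicate 1, the shortest list, 54 genes had a peak in each of the other 3 libraries.

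By subfamily, the Prpf genes were found most often and the Sf3a and Sf3b genes least. All 13 Prpf genes had a peak in shGFP and in shLuc replicates 2 and 3, and 12 had one in replicate 1. The Hnrnp genes had 18 of 19 in shGFP and 16, 19 and 19 of 19 in the shLuc libraries. The Snrp genes had 11 of 11 in shGFP and 10, 11 and 10 of 11 in shLuc. With 9 to 19 genes each, this order is a description. The Srsf genes had 10 of 11 in shGFP and 9, 10 and 8 of 11 in shLuc. The Sf3a and Sf3b genes had 8 of 9 in shGFP and 7, 7 and 5 of 9 in shLuc, so 4 of 9 genes had a peak in all 4 libraries. The Wilson intervals of any pair of subfamilies overlapped in each library, with the exception of shLuc replicate 3, where the Sf3a and Sf3b interval (26.7 to 81.1%) ended below that of the Hnrnp genes (83.2 to 100%).

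The width of the peaks separated the subfamilies more than their presence did. The median width of the widest promoter peak was 1052.5 bp in shGFP, 771.5 bp in shLuc replicate 1, 1074.5 bp in replicate 2 and 1002 bp in replicate 3. All coding genes with a promoter peak had medians of 971, 708, 936 and 900 bp, below those of the 63 genes in each library. Hnrnp promoters were wide, with medians of 1375, 1017, 1348 and 1290 bp in that order of libraries. Prpf promoters were narrow, with medians of 795, 580, 643 and 732 bp, below the median of all coding genes in every library. Srsf medians were 1351.5, 920, 1199.5 and 1154 bp, close to those of the Hnrnp genes. Sf3a and Sf3b medians (903.5, 681, 841 and 842 bp) and Snrp medians (971, 585, 906 and 844.5 bp) lay near or below the median of all coding genes.

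**Figure D2:**
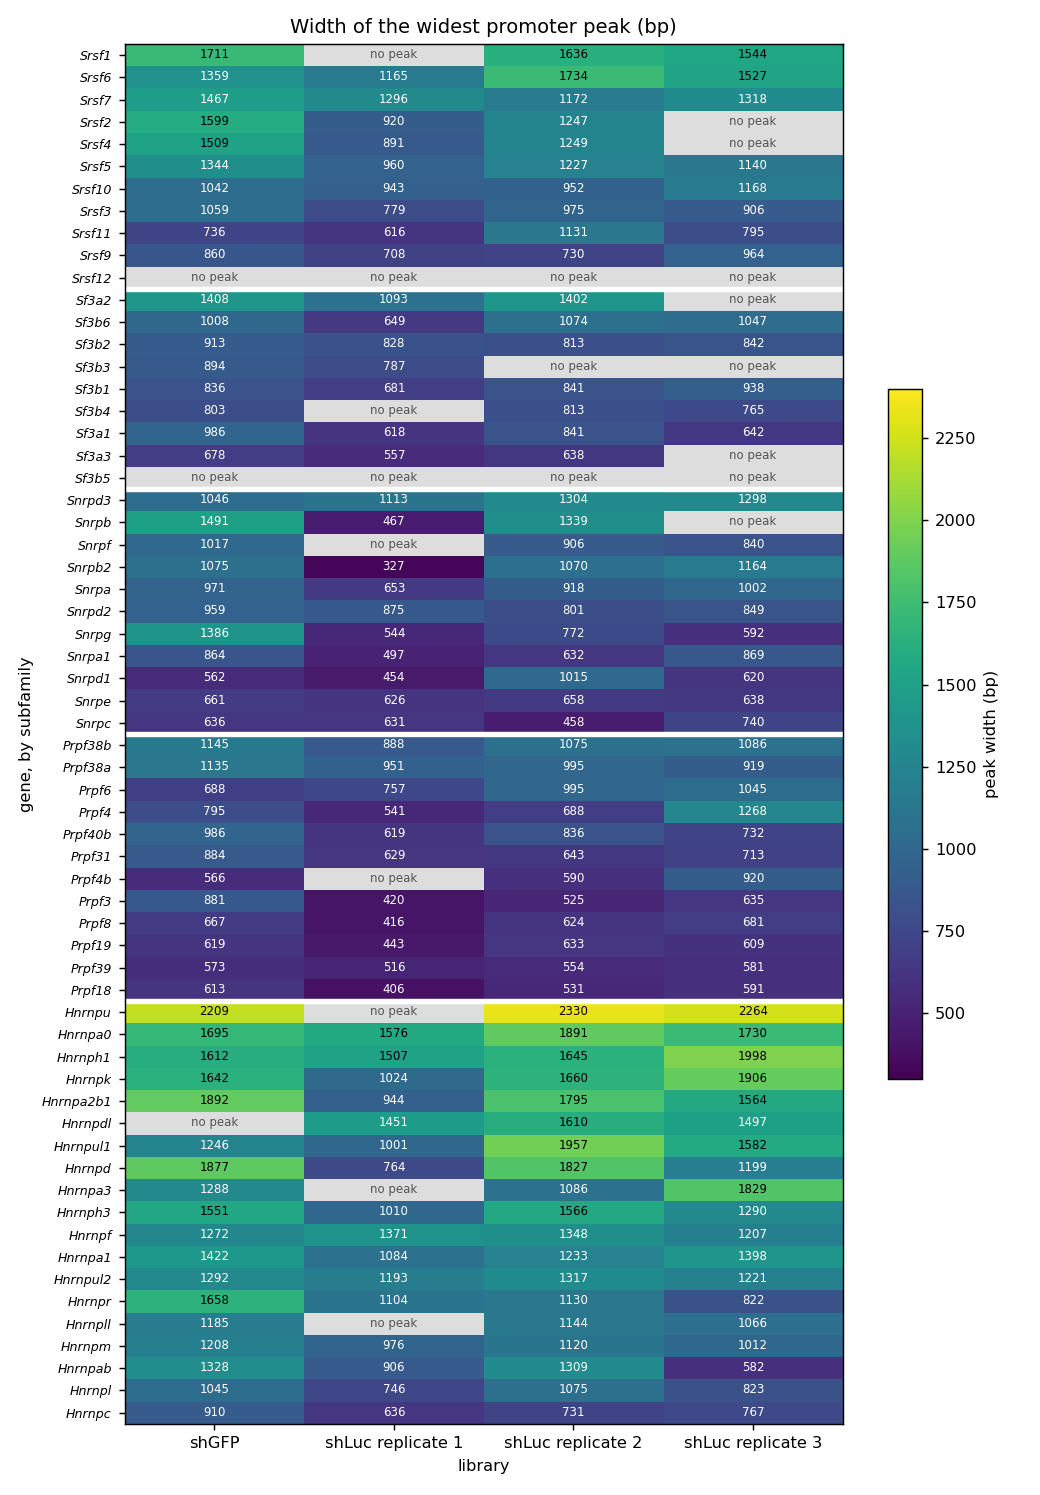
Width in bp of the widest promoter peak of 62 of the 63 genes (rows, grouped by subfamily and ordered by mean width) in each library (columns), with grey cells where no peak came within 1 kb of a start. Hnrnp and Srsf rows hold the wide peaks, up to 2330 bp for Hnrnpu, and the narrow peaks of the Prpf rows fall to 406 bp for Prpf18. The narrowest peak shown is that of Snrpb2 in shLuc replicate 1, at 327 bp.

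Widths ranked the genes alike from library to library. Over the 48 to 59 genes with a peak in both libraries of a pair, Spearman's rho lay between 0.69 and 0.86, given as a description because the libraries measure the same promoters. Of the 47 genes found in all 4 libraries, 37 (78.7%) had their narrowest peak in shLuc replicate 1, as had 74.2% of all coding genes found in all 4. For a single gene the widest peak was a median of 1.49 times its narrowest. Snrpe, a core Sm protein gene, varied least (661, 626, 658 and 638 bp), and Snrpb2, which encodes a U2 snRNP protein, varied most (1075, 327, 1070 and 1164 bp). The large ratio of Snrpb2 comes from 1 library, shLuc replicate 1.

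Among the SR protein genes, Srsf6 had the widest peaks on average of those found in every library. Its peak was 1359 bp in shGFP and 1165, 1734 and 1527 bp in shLuc. Srsf7, whose protein carries a zinc knuckle beside its RNA-binding domain, had peaks of 1467, 1296, 1172 and 1318 bp. Both lie above the median of the subfamily in 3 or more libraries. At the narrow end stood Srsf11 (736, 616, 1131 and 795 bp) and Srsf9 (860, 708, 730 and 964 bp). In shLuc replicates 2 and 3 the widest Srsf11 peak lay at an inner annotated start, more than 4 kb downstream of the principal start, and the peaks at the principal start were 661 and 683 bp wide there. The peak at the principal start of Srsf11 also covers the start of Lrrc40, which lies 23 bp away on the opposite strand.

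Srsf1, the founding SR protein, had a peak of 1711 bp in shGFP, 1636 bp in shLuc replicate 2 and 1544 bp in replicate 3, and no peak in replicate 1. Its peaks were the widest of the subfamily on average (1630.3 bp), and in replicate 1 the nearest peak was 18821 bp upstream. Srsf2 (SC35), a binder of exonic enhancers, had peaks of 1599, 920 and 1247 bp and none in shLuc replicate 3. Srsf4 had peaks of 1509, 891 and 1249 bp and none in replicate 3. All 3 of these genes had peaks wider than the subfamily median in shGFP and shLuc replicate 2, the longest lists. Srsf12, which encodes an SR-related protein, had its nearest peak 10467 bp upstream in shGFP and 19247, 10499 and 10473 bp upstream in shLuc.

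The genes of the branch site complexes had peaks of middling width. Sf3b1, the largest subunit of SF3B, had peaks of 836, 681, 841 and 938 bp. Sf3b6, whose product lies at the branch point, had peaks of 1008, 649, 1074 and 1047 bp, Sf3b2 of 913, 828, 813 and 842 bp, and Sf3a1 of 986, 618, 841 and 642 bp. These 4 were the genes of the subfamily found in every library. Sf3a2 had the widest peaks (1408, 1093 and 1402 bp) and no peak in shLuc replicate 3. Sf3a3 (678, 557 and 638 bp) was also without a peak in replicate 3, and Sf3b4 (803, 813 and 765 bp) was without one in replicate 1. Sf3b3 had peaks of 894 bp in shGFP and 787 bp in shLuc replicate 1 and none in replicates 2 and 3, although replicate 2 was one of the longest lists.

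Sf3b5, the smallest SF3B subunit, was an exception with one annotation and not with the other. Its single GENCODE transcript starts at chr10:13005343, in sequence with 5 CG dinucleotides per kb and a GC content of 38.2%. In shGFP a peak lay inside the gene at chr10:13008072-13008968, 2729 bp from that start, and shLuc replicates 2 and 3 had peaks of 813 and 825 bp at the same place. The RefSeq annotation puts the start of the gene 3107 bp further along, at chr10:13008450, which lies inside the peak in all 3 of these libraries. In shLuc replicate 1 the nearest peak was 43877 bp from the RefSeq start. For Srsf12 the annotations give the same start, and no list had a peak near it.

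In the snRNP group, Snrpd3, an Sm protein gene, had the widest peaks on average of those found in every library (1046, 1113, 1304 and 1298 bp), and its mean was followed by that of Snrpb2 (909 bp). The narrowest on average were Snrpc, which encodes the U1 protein that helps bind the 5′ splice site (636, 631, 458 and 740 bp), and Snrpe. Snrpd1, the Sm D1 gene, had peaks of 562, 454, 1015 and 620 bp, in which shLuc replicate 2 stood apart. Snrpb, the gene of Sm B, had peaks of 1491, 467 and 1339 bp and none in shLuc replicate 3. Snrpf, the gene of Sm F, had peaks of 1017, 906 and 840 bp and none in replicate 1.

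The Prpf group held most of the narrowest peaks. Of the 8 narrowest of the 47 genes found in every library, 5 were Prpf genes and 3 were Snrp genes. Prpf18, a factor of the second step of splicing, had peaks of 613, 406, 531 and 591 bp. Prpf39, a U1-associated factor, had peaks of 573, 516, 554 and 581 bp. Prpf19, a ubiquitin ligase of the activated spliceosome, had peaks of 619, 443, 633 and 609 bp. Prpf8, the protein at the catalytic centre, had peaks of 667, 416, 624 and 681 bp, and Prpf3, of the U4/U6 snRNP, had peaks of 881, 420, 525 and 635 bp. All 5 fell below the median of all coding genes in each library.

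Prpf38b, at the wide end of that group, had peaks of 1145, 888, 1075 and 1086 bp. Prpf4b, a kinase, had peaks of 566 bp in shGFP, 590 bp in shLuc replicate 2 and 920 bp in replicate 3, and none in replicate 1. The first pair ended 744 and 727 bp short of its start, and the peak of replicate 3 covered it.

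The hnRNP genes held the widest peaks. Hnrnpu, whose product also binds the nuclear scaffold, had peaks of 2209 bp in shGFP, 2330 bp in shLuc replicate 2 and 2264 bp in replicate 3, the widest of all 63 genes in each of these libraries, and no peak in replicate 1. In replicate 1 the nearest peak, at the start of Cox20, lay 5059 bp from the closest annotated start of Hnrnpu and 19779 bp from its RefSeq start. Of the 8 widest of the genes found in every library, 6 were Hnrnp genes. Hnrnpa0 had peaks of 1695, 1576, 1891 and 1730 bp, and Hnrnph1, which binds runs of G, had peaks of 1612, 1507, 1645 and 1998 bp. These were the widest peaks of shLuc replicate 1 as well, so the narrowing seen there in most genes was small in both.

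Other wide hnRNP promoters narrowed in shLuc replicate 1. Hnrnpk, a binder of C-rich RNA, went from 1642 bp in shGFP to 1024 bp in that library, with 1660 and 1906 bp in replicates 2 and 3. Hnrnpa2b1 had 1892, 944, 1795 and 1564 bp, Hnrnpd, which binds AU-rich elements, had 1877, 764, 1827 and 1199 bp, and Hnrnpul1 had 1246, 1001, 1957 and 1582 bp. In each of these 4 genes the peak of replicate 1 was the narrowest. At the other end were Hnrnpc, which binds runs of U (910, 636, 731 and 767 bp), and Hnrnpl, which binds CA repeats (1045, 746, 1075 and 823 bp). Hnrnpa3 (1288, 1086 and 1829 bp) and Hnrnpll, a regulator of splicing in lymphocytes (1185, 1144 and 1066 bp), had no peak in replicate 1. Hnrnpdl was the one gene without a peak in shGFP alone, where the nearest was 30384 bp upstream, and it had peaks of 1451, 1610 and 1497 bp in shLuc.

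**Figure D3:**
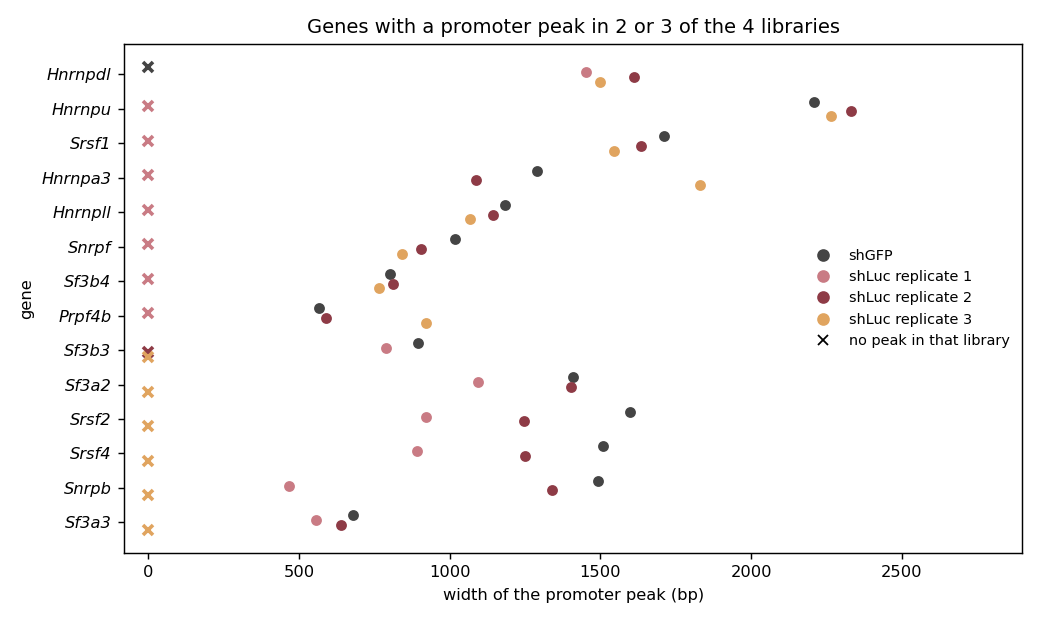
Width in bp (horizontal axis) of the promoter peak in each library for the 14 genes with a promoter peak in 2 or 3 libraries, with a cross at 0 where a library had no peak. Hnrnpu (2209 to 2330 bp) and Srsf1 (1544 to 1711 bp) have wide peaks in 3 libraries and none in shLuc replicate 1, and Hnrnpdl has none in shGFP.

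The absences followed the libraries. Of 54 genes with a peak in the other 3 libraries, 7 lacked one in shLuc replicate 1 (Hnrnpa3, Hnrnpll, Hnrnpu, Prpf4b, Sf3b4, Snrpf and Srsf1), which is 13.0% against 18% of all coding genes. In shLuc replicate 3 it was 5 of 52 (Sf3a2, Sf3a3, Snrpb, Srsf2 and Srsf4), 9.62% against 4.83%. In shGFP it was 1 of 48, 2.08% against 0.673%, and in shLuc replicate 2 it was 0 of 47 against 0.942%. Among all coding genes the ones absent from replicate 1 had narrower peaks in the other libraries (median 861 bp) than the ones present (970 bp). Among the splicing factor and hnRNP genes the medians stood the other way round, 1132 bp for the 7 absent and 981 bp for those present, and in replicate 3 they were 1216 bp for the 5 absent and 910 bp for those present, against 806.5 and 902.5 bp among all coding genes. The absence of coding genes from replicate 1 was not lowest at the widest peaks: it was 12.3% for genes with peaks of 1000 to 1200 bp elsewhere and 19.7% for those of 1400 bp or more. With 5 and 7 genes these medians are a description, and no test was made.

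Around the genes absent from 1 list, other regions were missing too in some places and present in others. The regions counted are those within 100 kb that the remaining 3 libraries shared. They include the promoter peak of the gene itself, which the list lacks by definition. Of these, shLuc replicate 1 had 0 of 7 around Hnrnpa3, 0 of 2 around Prpf4b and 1 of 4 around Snrpf. It had 3 of 8 around Srsf1, 2 of 5 around Hnrnpu, 2 of 3 around Hnrnpll and 5 of 7 around Sf3b4. Over all autosomes it had 55.2% of such regions, and the 7 genes fell on both sides of that share. In shLuc replicate 3 the counts were 0 of 3 around Srsf4, 1 of 2 around Snrpb and 2 of 3 around Sf3a2. They were 3 of 4 around Srsf2 and 3 of 4 around Sf3a3, with 92.3% over all autosomes. The missing promoter is in every total of both libraries, so these counts cannot be set directly against the shares over all autosomes. The part of sequencing depth in this was not tested, since the lists hold no counts.

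The peaks sat on the start sites. A peak covered an annotated principal start in 96.7% of the genes with a promoter peak in shGFP, and 94.4%, 95% and 90.9% in shLuc replicates 1, 2 and 3, against 82.4% to 85.7% of all coding genes. Reach was taken only where the widest peak covered that start, in shGFP 57 of the 60 genes. There the widest peak reached a median of 548 bp upstream and 571 bp downstream of that start. In shLuc replicate 1 the reach was 359 and 417 bp. For coding genes in shGFP the medians were 402.5 bp upstream and 541 bp downstream, over the 10698 of 12885 whose widest peak covered the principal start. Single genes leaned either way: in shGFP the peak of Hnrnph1 reached 32 bp upstream and 1579 bp downstream, and that of Hnrnpa2b1 reached 1474 and 417 bp.

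**Figure D4:**
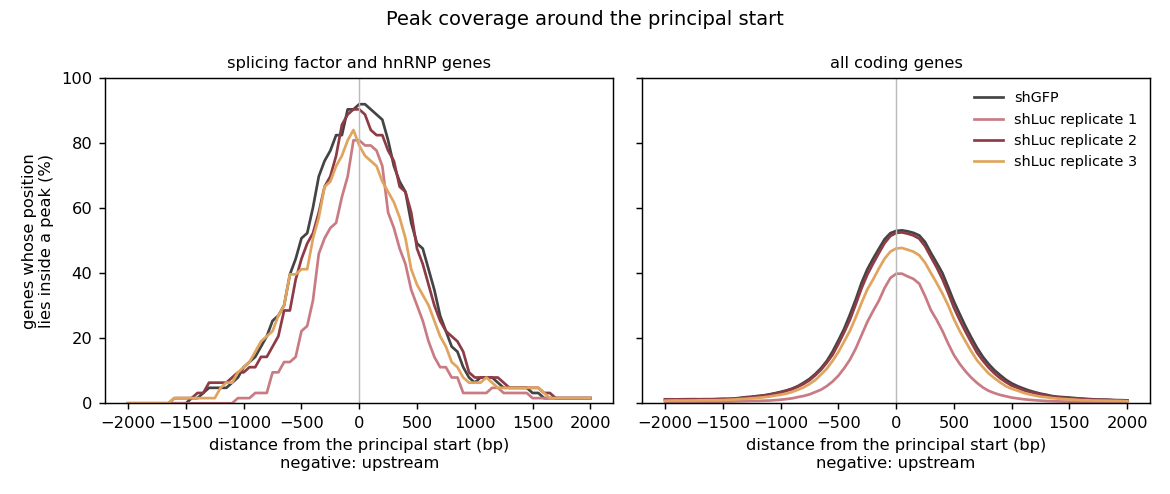
Share of genes (%, vertical axis) whose position lies inside a peak, by distance in bp from the principal start (horizontal axis, negative upstream), for the 63 genes (left) and all autosomal protein-coding genes (right), 1 line per library. Coverage is highest close to the start in both panels, and all 4 lines of the 63 genes stand above those of all coding genes there.

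In a few genes the peaks lay at another start. The principal start of Hnrnpm (chr17:33686860), with 4 CG dinucleotides per kb, was outside every peak, and in all 4 libraries the nearest peak, whose edge lay between 986 and 1129 bp away, covered another annotated start. Hnrnpf had peaks at a pair of annotated starts about 10 kb apart in all 4 libraries: the first, at the principal start, was 1272, 1371, 1348 and 1205 bp wide, and the second was 1178, 520, 1240 and 1207 bp wide. The outermost start of Hnrnpf, more than 6 kb upstream of the first, had no peak. Prpf6, a tri-snRNP factor, had peaks of 688, 757, 995 and 1045 bp within 549 bp of its outermost start, and a second peak at its principal start (391 and 552 bp wide) in shGFP and shLuc replicate 1. With 1 RefSeq start per gene, which was found for all 63 genes, Hnrnpf, Hnrnph1, Hnrnpl and Srsf12 were the 4 without a promoter peak in any library, and Sf3b5 had one in 3.

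Peaks in the body of these genes were few. Beyond 1 kb of any start, 6 of the 63 genes held a peak in shGFP (9.52%), as did 1, 4 and 4 in shLuc (1.59%, 6.35% and 6.35%). In shGFP and shLuc replicates 2 and 3 these include Sf3b5, whose inner peak covers its RefSeq start. Over all coding genes the shares were 28.3%, 12.2%, 28.1% and 22.2%. The 63 genes are shorter, with a median length of 14.1 kb against 17.6 kb, and the part of length in this was not tested. Hnrnpr was the one gene with such a peak in all 4 libraries, 5736 to 5994 bp from the nearest start and 1052, 574, 1067 and 804 bp wide. Hnrnpc had one of 1838 bp in shGFP, wider than its promoter peak there, and none in shLuc.

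CpG-rich promoters were commoner among the 63 genes than among all coding genes, a property that the choice of genes did not use. A promoter was called CpG-rich when the 1 kb around the principal start had a CpG observed-to-expected ratio of at least 0.75 and a GC content of at least 55%. By this rule 39 of 63 (61.9%) were CpG-rich, against 27.0% of all coding genes. They were 17 of 19 Hnrnp genes and 9 of 11 Srsf genes, but 5 of 13 Prpf, 4 of 11 Snrp and 4 of 9 Sf3a and Sf3b genes.

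Within the CpG-rich class the shares of the 63 genes were close to those of all coding genes, and outside that class they were far above them. Of the 39 CpG-rich genes 97.4%, 87.2%, 97.4% and 87.2% had a promoter peak in the 4 libraries, against 92.3%, 81.3%, 92.0% and 85.7% of all CpG-rich coding genes. Among CpG-rich promoters the difference came down from 33.3 to 5.18 percentage points in shGFP and from 34.0 to 4.26 in the shLuc mean. The 24 other promoters had a peak in 91.7%, 83.3%, 91.7% and 87.5%, against 50.7%, 36.2%, 50.2% and 45.4% of all coding genes without a CpG-rich promoter. The 24 were not matched in CpG content to those genes, and some fell just short of a cutoff. Prpf8 had a ratio of 0.76 at 53.4% GC, Snrpd1 0.879 at 54.4% and Srsf10 0.748 at 63.2%. Hnrnpm (0.0825) and Sf3b5 (0.138) were far below it. The median ratio over all coding genes, CpG-rich ones included, was 0.585. The part of CpG content in this difference was not tested. Expression was not analysed here.

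Peak width went with the number of CG dinucleotides. Over the 47 genes found in all 4 libraries, Spearman's rho between mean width and the CG count of the 4 kb around the start was 0.76, with the count of the central 1 kb it was 0.57, with GC content 0.54, and with the number of annotated starts 0.03. These are descriptions across genes, which are not replicates, and the points share their libraries. Hnrnpa0 had the most CG dinucleotides in 4 kb (336) and the widest mean peak (1723 bp), and Prpf18 had the fewest (77) and the narrowest (535 bp). Hnrnph1 (180 and 1690.5 bp) was wide for its count, and Srsf9 (180 and 815.5 bp), with the same count, was narrow.

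**Figure D5:**
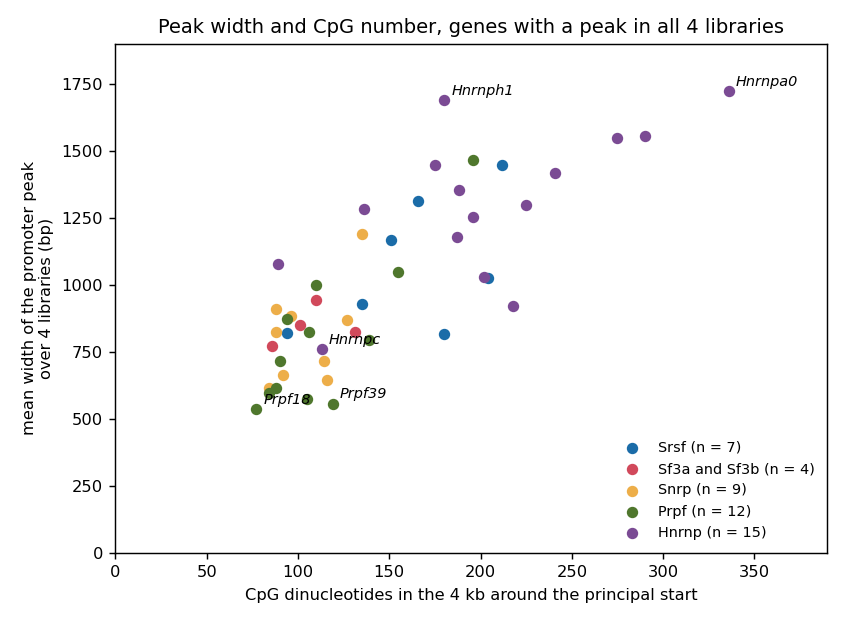
Mean width of the promoter peak over 4 libraries (bp, vertical axis) against the number of CpG dinucleotides in the 4 kb around the principal start (horizontal axis) for the 47 genes with a promoter peak in all 4 libraries, 1 point per gene, coloured by subfamily. Hnrnp genes fill the upper right, up to Hnrnpa0 at 336 and 1723 bp, and Prpf genes the lower left, down to Prpf18 at 77 and 535 bp.

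Many of the promoters were shared with another gene. Of the 63 genes 20 (31.7%) had the principal start of another coding gene within 1 kb on the opposite strand, against 9.37% of all coding genes. Hnrnpa2b1 and Hnrnpa1 lay beside Cbx3 and Cbx5, which encode the heterochromatin proteins HP1 gamma and HP1 alpha, at 758 and 616 bp. Prpf38a lay 118 bp from Orc1, of the origin recognition complex, and Prpf4 lay 155 bp from Cdc26, of the anaphase-promoting complex. A peak at such a place cannot be assigned to either gene.

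Short motifs were searched on both strands in the 250 bases before and 50 after the principal start of every coding gene. CCGGAA, the core of ETS factor sites, was in 28 of the 63 promoters (44.4%) against 18.5% of all, and CCAAT, the NF-Y box, in 33 (52.4%) against 38.2%. Among CpG-rich promoters the first was in 43.6% against 29.1% and the second in 59.0% against 34.7%. The GC box, GGGCGG, was in 66.7% against 46.2%, but among CpG-rich promoters in 79.5% of both. The TATA box, TATAAA, was in 12.7% of both, and among CpG-rich promoters in 12.8% against 4.59%. The E-box CACGTG was in 7 of the 63 promoters (11.1%) against 7.78% of all. Of the other motifs searched, CTCGCGAG was in 3 promoters (4.76%) against 1.18% of all, AAGATGGC in 3 (4.76%) against 3.12%, CGCATGCG in 1 (1.59%) against 2.39% and TGACGTCA in 1 (1.59%) against 2.48%. No motif contains another, although neighbouring matches can share their end letters, and a match is not a bound site.

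The CCAAT box was commonest in Hnrnp (14 of 19) and Prpf (9 of 13) promoters, and CCGGAA in Srsf promoters (7 of 11). Srsf2 (chr11:116853095-116853244, minus strand) and Prpf19 (chr19:10895081-10895230, plus strand) are shown because both motifs lie in the 150 bases before their starts, at promoters with peaks of very different width. Capitals mark CCAAT and CCGGAA on either strand, so that the reverse of CCGGAA reads TTCCGG.
Srsf2: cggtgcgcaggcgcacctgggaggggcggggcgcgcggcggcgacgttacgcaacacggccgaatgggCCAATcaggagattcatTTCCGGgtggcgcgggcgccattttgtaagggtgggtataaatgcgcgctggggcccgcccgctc
Prpf19: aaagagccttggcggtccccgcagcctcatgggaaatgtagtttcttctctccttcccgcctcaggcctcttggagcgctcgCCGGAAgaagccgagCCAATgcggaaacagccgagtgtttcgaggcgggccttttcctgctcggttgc
Srsf2 has 21 CG dinucleotides in these bases and Prpf19 has 12.

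Other gene families of general use had shares like those of the splicing genes. A promoter peak was found in shGFP and in the shLuc mean for 94.9% and 88.9% of 39 proteasome genes, 94.9% and 87.6% of 78 mitochondrial ribosomal protein genes and 86.2% and 81.0% of 65 translation factor genes. The splicing factor and hnRNP genes, at 95.2% and 89.4% ± 5.10 (SD, n = 3), differed from the first pair of families by less than that SD. Their median width in shGFP, 1052.5 bp, was above that of the proteasome (786 bp), mitochondrial ribosomal (830 bp) and translation factor genes (938 bp).

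The rest of the splicing machinery was read from lists of other genes. Of 59 other core spliceosome genes, such as the U2af, Lsm and Snrnp genes, 91.5% had a promoter peak in shGFP, the shLuc mean was 90.4% ± 4.27 (SD, n = 3), and 46 had one in all 4 libraries. U2af2, the large subunit of the factor that reads the polypyrimidine tract, was the one with none. Of 32 broadly used regulators 96.9% and 89.6% ± 4.77 had a peak and 25 had one in all 4. Their median width in shGFP was 1221 bp, above the 1052.5 bp of the 63 genes. That of the other core spliceosome genes was 845.5 bp. Of 20 regulators known from brain, muscle or epithelium 80% and 71.7% ± 17.6 had a peak and 10 had one in all 4, and Elavl3, a neuronal RNA-binding protein gene, had none. These tissue-restricted genes stood below the 63 in every library, with 16 of 20 in shGFP and 11, 18 and 14 of 20 in shLuc. The Wilson intervals overlapped in all libraries but shLuc replicate 1 (34.2 to 74.2% against 75.03 to 92.3%). Their shares were nonetheless above those of all coding genes in every library. They were 80% against 61.9% in shGFP, and 55%, 90% and 70% against 48.4%, 61.5% and 56.3% in shLuc.

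Last, the control hairpins were compared by setting shGFP against the 3 shLuc libraries. The share of the 63 genes with a promoter peak differed by 5.82 percentage points, 95.2% for shGFP against a shLuc mean of 89.4% ± 5.10 (SD, n = 3), which was little more than 1 SD. Over all coding genes the same difference was 6.53. The median width differed by 103 bp, less than the SD of 158 bp. Leaving out shLuc replicate 2 raised the difference in share to 8.73 points, and leaving out replicate 1 lowered it to 3.97 and the difference in width to 14.2 bp. With 1 library against 3 the smallest p of an exact permutation test is 0.25, so none was run. Nothing in the labels says whether the shLuc replicates were separate cultures, so their SD may be technical.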

How the data were processed

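The deposited files were 4 peak lists, 1 per library and not pooled, with 3 columns (chromosome, start and end). By the submitters' processing notes the tools were bcl2fastq, Bowtie2 and MACS2 and the build was mm10, without settings. The peak caller's threshold and any shift of reads for the transposase are not given in the sources used here. According to the study's methods the authors kept the best alignment of each read, put reads with equal best positions at 1 of them at random, dropped mitochondrial reads and kept concordant pairs. The deposited positions carry no signal or count, so depth is unknown.

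For each gene and library the widest peak within 1 kb of any GENCODE start was taken. Peaks were compared with GRCm38 sequence, and coordinates are counted from 1. The members, the gene lists (other spliceosome, broad and tissue-restricted regulators, markers) and the rules were chosen with earlier results of these data known. Genes named are those with a promoter peak in fewer than 4 libraries, the 8 widest and 8 narrowest of the rest, and the 2 widest and 2 narrowest of each subfamily. Those named for a shared start, an inner peak, a second start or a list were chosen after their values were seen. Printed bases exclude annotated exons. The values of 1 gene that this rule names, and 1 sequence, are not reported here. Alternatives changed the window, starts, peak lists, members and libraries. Restriction to CpG-rich promoters and RefSeq starts were added after the data were seen. Python 3.11.15, NumPy 2.4.6, SciPy 1.17.1 and matplotlib 3.10.9 were used, and the window and width functions were tested on simulated data.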

Additional observations from a re-analysis of the deposited data

How the results depend on the processing

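No paired analysis was possible because shGFP had a single library, and the comparison had no test. Of 136 comparisons of 10 results with their values under 15 other settings, 119 moved by less than 1 SD of the shLuc libraries (for counts, by less than 1.5 times). The difference in share between shGFP and shLuc turned from 5.82 to -1.59 percentage points (SD 4.76) when each list was held to the length of the shortest by keeping its widest peaks. It rose to 12.2 with the widest 50% of each list. Under these settings the share was 79.4% and 85.7% in shGFP and 81.0% and 73.5% in shLuc, and 33 genes had a peak in all 4 libraries under both. Genes with no promoter peak numbered 1 within 5 kb, 6 with the outermost GENCODE start of each gene (shLuc share 82.0%) and 5 with the widest 50%. They numbered 4 with 1 RefSeq start and 0 of the CpG-rich genes. With CpG-rich promoters alone, 28 of 39 genes had a peak in all 4 libraries, the difference from all coding genes was 5.18 points in shGFP and 4.26 in shLuc, and the shGFP median width was 1280 bp. Within 5 kb the shLuc difference was 29.6 points. Leaving out each shLuc library in turn gave differences from all coding genes of 32.4 to 35.5 points, shLuc shares of 86.5% to 91.3%, hairpin differences of 3.97 to 8.73 points, and 47 to 54 genes found in each library used. The cause of these changes was not tested. A list cut to its widest 50% loses narrow promoter peaks, such as those of Prpf18, Prpf19 and Prpf39, by construction. For the 63 genes, 520 of 567 comparisons kept the number of libraries with a peak. Without counts, an absent peak cannot be told from one below the caller's threshold.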
